A study of Mus musculus with 7 samples.

Results

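The contactin-associated protein family of the mouse comprises Cntnap1, Cntnap2, Cntnap3, Cntnap4, Cntnap5a, Cntnap5b and Cntnap5c, and these 7 genes were taken by name from the 55416 genes of the table, of which 21885 were protein-coding. The family was selected on a measured result, because Cntnap3 had risen from Ctr over Ref to Alt in these same libraries, so the values of Cntnap3 are given as a description with no test. The question was whether its 6 paralogs moved with it. RNA-seq was performed on prefrontal cortex (PFC) tissue of female C57BL/6 wild-type mice, in 3 Ctr, 2 Ref and 2 Alt libraries. All mice had received a recombinant adeno-associated virus in the PFC with an EGFP reporter under the human synapsin promoter, which is active in neurons. The Ctr virus carried no further insert, the Ref virus carried the human lncRNA PAXIP1-AS1 with the reference C allele, and the Alt virus carried it with the alternative G allele. The tissue was bulk, so transduced neurons were measured together with all other cells, and fewer cells of a type and less RNA per cell cannot be told apart. The age of the mice used for RNA-seq and whether a library came from 1 animal or from a pool were not given in the sources used here.

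Contactin-associated proteins are single-pass membrane proteins of the neurexin superfamily, with a large extracellular part and a short cytoplasmic tail. Cntnap1, also called Caspr, joins the axon to the myelin loops at the paranode together with contactin 1. Cntnap2, or Caspr2, gathers Shaker-type potassium channels at the neighboring juxtaparanode and has been linked to autism and epilepsy. Cntnap3 and Cntnap4 have been placed at synapses, Cntnap4 chiefly in inhibitory interneurons, and Cntnap5a, Cntnap5b and Cntnap5c are the 3 mouse counterparts of human CNTNAP5, whose role is less well known.

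The coding sequences are shown first because read counts of near-identical genes can mix. The lines below give the same 60 coding bases of each gene, in a single exon each, from the GENCODE vM21 transcripts of mouse GRCm38, around the longest run that Cntnap3 shares with any paralog. For Cntnap3 this stretch is chr13:64858711-64858770 on the minus strand, bases 227 to 286 of the coding sequence. Capitals mark bases that differ from Cntnap3.
Cntnap3: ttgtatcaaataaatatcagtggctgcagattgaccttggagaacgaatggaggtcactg
Cntnap4: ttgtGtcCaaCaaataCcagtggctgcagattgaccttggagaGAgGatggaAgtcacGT
Cntnap2: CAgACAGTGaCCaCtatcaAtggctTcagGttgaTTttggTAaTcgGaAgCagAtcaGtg
Cntnap5a: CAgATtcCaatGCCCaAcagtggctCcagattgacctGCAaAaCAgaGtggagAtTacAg
Cntnap5b: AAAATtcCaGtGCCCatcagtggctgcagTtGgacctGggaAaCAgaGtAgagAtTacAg
Cntnap5c: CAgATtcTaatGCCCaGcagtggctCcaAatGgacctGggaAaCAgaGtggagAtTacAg
Cntnap1: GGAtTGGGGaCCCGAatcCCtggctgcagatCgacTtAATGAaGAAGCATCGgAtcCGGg
Cntnap4 differed from Cntnap3 at 10 of these bases and the others at 21 to 35.

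Over the whole coding sequence, Cntnap3 was 69.4% identical to Cntnap4 and 50.9% to 58.9% identical to the other paralogs. Its longest run shared with a paralog was 26 bases, with Cntnap4, and none of its 6337 words of 50 bases occurred in a transcript of any other gene. The 3 Cntnap5 genes were close copies, with 89.7% to 90.3% identity between any pair. Their longest shared run is printed because a read inside it cannot be assigned to either gene. It was 91 bases long, in Cntnap5a at chr1:116188302-116188392 of GRCm38 on the plus strand, within an exon, and Cntnap5b held the same bases.
Cntnap5a and Cntnap5b: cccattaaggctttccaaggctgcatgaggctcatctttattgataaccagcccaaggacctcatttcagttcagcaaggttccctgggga
Of the 50-base words, 104 of 10896 in Cntnap5a, 93 of 5253 in Cntnap5b and 90 of 3882 in Cntnap5c occurred in another member, whereas Cntnap1, Cntnap2 and Cntnap4 held none. Cntnap1 shared 3.44% of its words, Cntnap2 0.722% and Cntnap4 7.29% with genes outside the family, on either strand. How the counting treated such reads was not given in the sources used here. Counts of all members but Cntnap3 are uncertain to that extent.

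Promoter windows are shown because the study examined the zinc finger repressor ZGPAT at the human CNTNAP3 promoter, in human cell lines. The mouse windows given here are not the sequence examined there. The recognition sequence known for ZGPAT is spelled GGAGGAGA, GGAGGAAA, GGAGAAGA or GGAGAAAA. The RefSeq promoter windows held Cntnap2, with 2 start sites, Cntnap3 and Cntnap5b. Each window runs from 250 bases before to 50 bases after a start site in GRCm38.p6, and both strands were searched. Capitals mark a match.
Cntnap3, chr13:64903839-64904138, minus strand: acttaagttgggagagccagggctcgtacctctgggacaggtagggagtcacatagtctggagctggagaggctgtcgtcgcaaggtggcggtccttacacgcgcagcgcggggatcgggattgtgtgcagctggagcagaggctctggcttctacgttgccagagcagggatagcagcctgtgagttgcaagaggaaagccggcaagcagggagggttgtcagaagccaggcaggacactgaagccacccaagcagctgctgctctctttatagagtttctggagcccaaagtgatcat
Cntnap5b, chr1:99772151-99772450, plus strand: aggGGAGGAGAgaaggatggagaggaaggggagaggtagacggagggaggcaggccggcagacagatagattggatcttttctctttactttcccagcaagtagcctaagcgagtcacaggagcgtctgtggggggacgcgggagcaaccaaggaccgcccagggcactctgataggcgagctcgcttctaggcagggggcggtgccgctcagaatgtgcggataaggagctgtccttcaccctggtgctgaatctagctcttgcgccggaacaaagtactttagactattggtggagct
The Cntnap5b window held 1 match, GGAGGAGA at base 4, and the Cntnap3 and both Cntnap2 windows held none of these spellings. At least 1 match was present in 11.9% of all 32851 windows of this length. A match is a description of the letters only.

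Library totals ranged from 16655697 to 20750857 counts, and 17254 genes passed the filter on low counts, among them all 7 members. Values are given as CPM, the counts scaled to an equal library size with TMM factors, unless stated otherwise. Each of the 9 marker lists for brain cell types was detected in full, with no marker at 0 in any library. The summed CPM of 10 oligodendrocyte markers was 2425 to 3431 in Ctr, 4101 to 5101 in Ref and 2374 to 2904 in Alt, and that of 7 inhibitory neuron markers was 366 to 415.3, 372.3 to 386 and 291.4 to 334. The sum of 5 excitatory neuron markers was 4460 to 5006 in Ctr, 5140 to 5205 in Ref and 5704 to 5858 in Alt, without overlap, but its members went both ways: 2 of the 5 were higher and 1 was lower in Alt than in Ctr at an unadjusted edgeR p of 0.05 (9.45% and 10.3% of all genes), and the median log2 fold change was 0.12 for Alt and -0.07 for Ref against Ctr. The sum of 5 markers of all neurons overlapped between the groups (4509 to 4970, 3992 to 4608 and 4509 to 4833). The sum of 4 endothelium markers was 196.6 to 243.8 in Ctr, 266.3 to 300.8 in Ref and 254.6 to 312.5 in Alt. For 5 microglia markers it was 276.4 to 320.8, 327.1 to 337.5 and 330.7 to 333.1. The median log2 fold change for Alt against Ctr was 0.15 for endothelium and -0.09 for microglia. The part of these cells in the levels of the Cntnap genes was not tested. Both Alt libraries, chiefly replicate 1, had more counts on long transcripts relative to the Ctr mean. The log2 CPM difference from that mean rose by 0.23 in Alt replicate 1 and 0.08 in Alt replicate 2 per doubling of gene length. In the other libraries this slope was -0.04 to 0.04. The members were 3931 to 10945 bases long in the table, so values after a gene length correction are given where they changed a call. For a p-value below, the libraries count as replicates, and whether their spread is biological or technical was not given.

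Levels between the genes were compared in the deposited TPM, the relative number of transcripts, which are scaled by gene length. Cntnap1 was the most abundant member in every group, with 90.6 ± 13.4 TPM in Ctr (SD, n = 3), 104.4 ± 4.91 in Ref (n = 2) and 100.1 ± 3.49 in Alt (n = 2). Cntnap2 followed with 31.4 ± 3.26 TPM in Ctr. Cntnap5a had 11.9 ± 2.17 and Cntnap4 11.1 ± 2.34 TPM in Ctr, and these neighbors overlapped. Cntnap5b lay below them with 4.04 ± 1.70 TPM. Cntnap5c, with 1.94 ± 1.83 TPM, and Cntnap3, with 1.82 ± 0.49 TPM, were the lowest members in Ctr and their ranges overlapped. Thus the gene whose rise selected the family contributed 1.20% of the family's TPM in Ctr, 1.46% in Ref and 2.15% in Alt, whereas Cntnap1 contributed 59.2%, 61.5% and 51.5%.

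**Figure D1:**
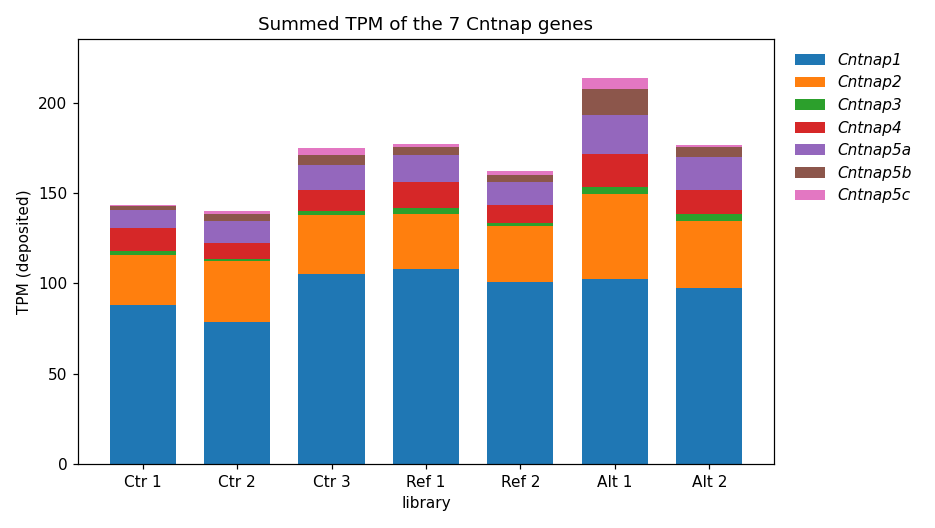
Deposited TPM of the 7 Cntnap genes (y axis), stacked for each of the 7 libraries (x axis), with no error bars because each bar is a single library. Cntnap1 and Cntnap2 fill most of every bar, Cntnap3 is a thin band in each, and the summed TPM of Alt replicate 2 (176.8) lies between that of Ctr replicate 3 (175.2) and Ref replicate 1 (177.2), while Alt replicate 1 reaches 214.1.

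Summed over the family, TPM was 152.9 ± 19.4 in Ctr (SD, n = 3), 169.7 ± 10.5 in Ref (n = 2) and 195.5 ± 26.4 in Alt (n = 2). The stacked plot of TPM shows that the Alt libraries did not separate from Ref in this sum, and no test was made on it. Of the 42.6 TPM between the Alt and Ctr means, Cntnap2 made up 10.3, Cntnap1 9.50, Cntnap5a 8.20, Cntnap5b 5.72, Cntnap4 4.48, Cntnap3 2.35 and Cntnap5c 2.02. Cntnap3 thus made up 5.52% of the difference. Without Alt replicate 1 the difference was 24.0 TPM, of which Cntnap1 made up 7.03, Cntnap5a 6.56, Cntnap2 5.30, Cntnap3 2.34, Cntnap4 1.96, Cntnap5b 1.26 and Cntnap5c -0.48, and the share of Cntnap3 was 9.77%.

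Cntnap3 was low in all libraries. Its CPM was 4.42, 2.56 and 3.21 in Ctr replicates 1 to 3, 5.47 and 4.03 in the Ref replicates, and 7.68 and 8.53 in the Alt replicates, from 52 to 153 counts. Both Alt libraries were above all others, and the Ref libraries overlapped Ctr. The exact 95% Poisson intervals, which cover counting error only, were 6.35 to 9.19 and 7.23 to 9.997 CPM in Alt and reached 6.57 in Ref replicate 1. The fitted log2 fold change was 1.26 (SE 0.35) for Alt against Ctr, 0.77 (SE 0.38) for Alt against Ref and 0.48 (SE 0.35) for Ref against Ctr. The last value was 0.25 without Ref replicate 1 and 0.32 without Ctr replicate 2, and it reached 0.72 without Ctr replicate 1. These are the values that selected the family, and Ctr and Ref are shared between the comparisons. No other gene in the table overlapped the span of Cntnap3, which it lists on chromosome 13 from 64883996 to 65051769.

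**Figure D2:**
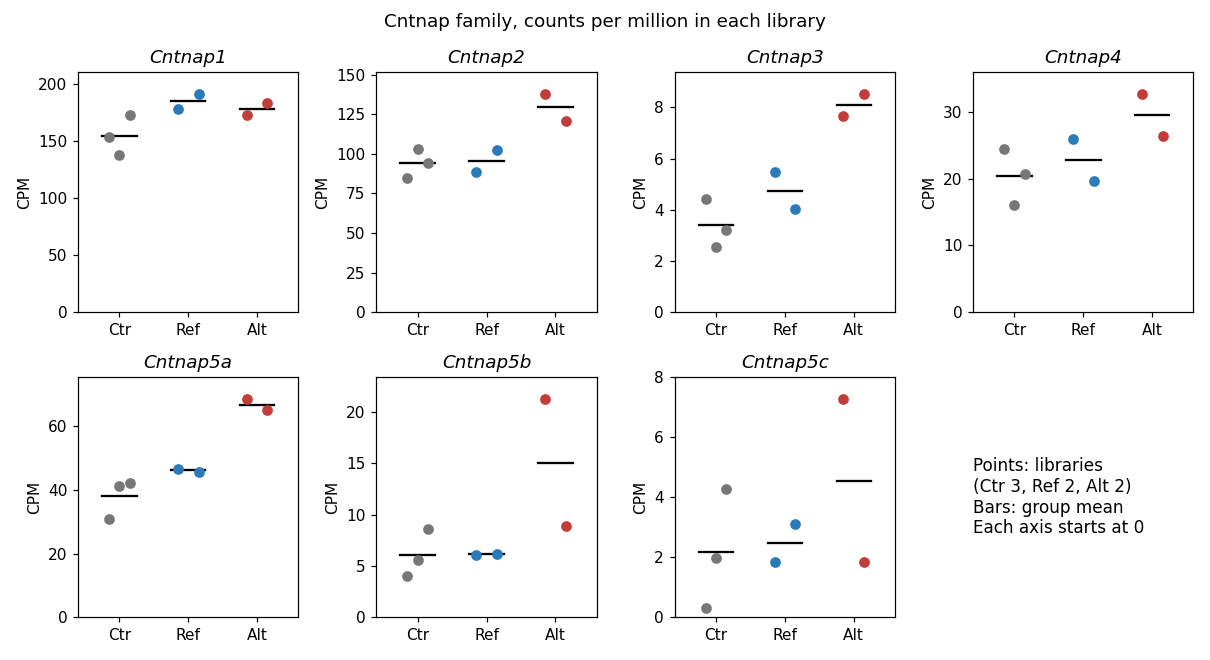
CPM (y axes, each starting at 0) of each Cntnap gene in the 3 Ctr, 2 Ref and 2 Alt libraries (x axes), with a point for each library and a bar at the group mean. The points of Cntnap5a separate the 2 Alt libraries (68.6 and 65.0) from the rest, whereas those of Cntnap5b and Cntnap5c are spread widely within Alt.

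Among the paralogs, Cntnap2, Cntnap4, Cntnap5a and Cntnap5b were higher in Alt than in Ctr at an unadjusted p of 0.05 and none was lower, whereas Cntnap1 and Cntnap5c did not pass. This made 4 of 6 higher, beside 9.45% of all genes tested that were higher and 10.3% that were lower by the same edgeR quasi-likelihood test, and beside 11.7% higher among the 7725 genes within the members' range of lengths. With adjustment over all genes by the Benjamini-Hochberg method, edgeR called 0 of the paralogs and 0% of all genes (3414 genes at an unadjusted p of 0.05). DESeq2 called Cntnap5a and Cntnap5b after adjustment, beside 5.03% of the 12905 genes to which it gave an adjusted p that were called higher. Without the filter on low counts, edgeR also called Cntnap5a (adjusted p = 0.00266) and Cntnap5b (adjusted p = 0.00348), beside 2.65% of 26895 genes that were called higher. Without Alt replicate 2, where Alt replicate 1 was taken to vary like the other groups, edgeR called Cntnap2 (adjusted p = 0.0413), Cntnap5a (adjusted p = 0.0103) and Cntnap5b (adjusted p = 0.00291), beside 7.56% of genes that were called higher and 3451 called in all. Both Alt libraries lay above all 3 Ctr libraries for 5 of the 6 paralogs (all but Cntnap5c, and Cntnap1 only by 173.1 against 173.0 CPM), beside 16.8% of all genes tested. The median log2 fold change of all genes tested was -0.03. Without Alt replicate 1, 1 of 6 paralogs passed (Cntnap5a), beside 3.68% of all genes that were higher, and after the length correction 2 passed (Cntnap5a and Cntnap5b), beside 7.41%.

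**Figure D3:**
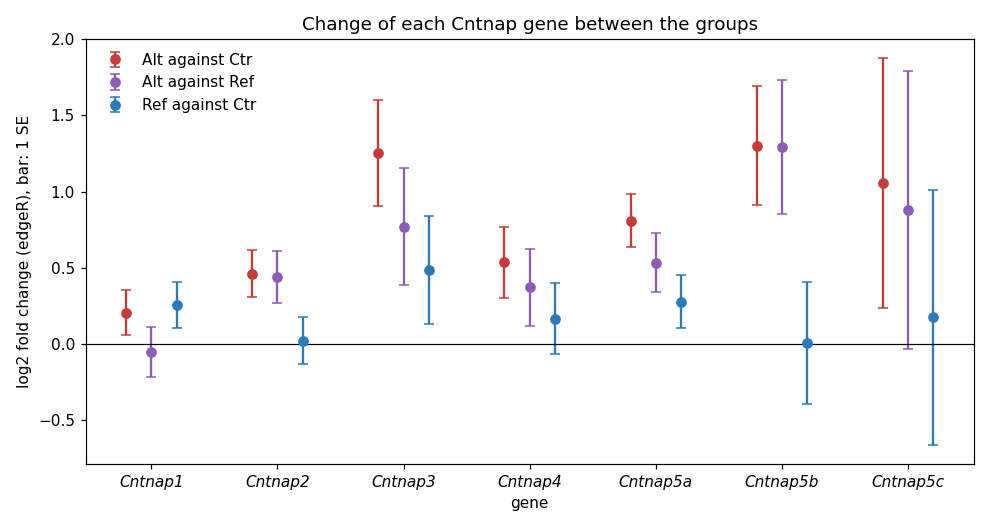
Fitted log2 fold change from edgeR (y axis) of the 7 Cntnap genes (x axis) for Alt against Ctr, Alt against Ref and Ref against Ctr; bars are 1 SE and the line marks no difference. Alt against Ctr is positive for every gene, from 0.21 for Cntnap1 to 1.30 for Cntnap5b, the bars of Cntnap5c are the longest, and the values of Cntnap3 are a description because they selected the family.

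Cntnap1, the paranodal member, was measured with 2662 to 3724 counts. Its CPM was 153.6, 138.1 and 173.0 in Ctr, 178.4 and 191.8 in Ref, and 173.1 and 184.0 in Alt. The Alt libraries lay at or just above the highest Ctr library and overlapped Ref. The log2 fold change was 0.21 (SE 0.15, adjusted p = 0.475) for Alt against Ctr by the edgeR test, -0.05 (SE 0.17, adjusted p = 0.923) for Alt against Ref and 0.26 (SE 0.15, adjusted p = 1) for Ref against Ctr. None of these differences passed the unadjusted threshold, although both Ref libraries were above all Ctr libraries. The span of Cntnap1, listed on chromosome 11 from 101061349 to 101081550, overlaps Plekhh3 on the opposite strand, which had at most 202 counts in a library, and the strand setting of the counting was not given.

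Cntnap2, the juxtaparanodal member, had 1700 to 2165 counts. Its CPM was 84.4, 103.1 and 94.4 in Ctr, 88.6 and 102.2 in Ref, and 137.9 and 120.7 in Alt. Both Alt libraries were above every Ctr and Ref library, while Ref and Ctr lay in the same range. The log2 fold change was 0.46 (SE 0.16, edgeR adjusted p = 0.151) for Alt against Ctr and 0.44 (SE 0.17, adjusted p = 0.267) for Alt against Ref, and 0.02 (SE 0.16, adjusted p = 1) for Ref against Ctr. At 10248 bases Cntnap2 is among the longest members, and after the length correction the log2 fold change for Alt against Ctr was 0.20 (edgeR adjusted p = 0.459) and no longer passed the unadjusted threshold. The same held without Ctr replicate 1, with 0.39, and without Alt replicate 1, with 0.36. The call for Alt against Ref was lost after the length correction (0.25), with the replicate number as a block (0.45), without Ref replicate 1 (0.33) and without Alt replicate 1 (0.35).

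Cntnap4, the closest paralog of Cntnap3 by coding sequence, had 325 to 537 counts. Its CPM was 24.4, 16.0 and 20.7 in Ctr, 26.0 and 19.7 in Ref, and 32.7 and 26.4 in Alt. Alt replicate 2 lay close to Ref replicate 1, so the separation was narrow. The log2 fold change was 0.54 (SE 0.23, edgeR adjusted p = 0.227) for Alt against Ctr, 0.37 (SE 0.26, adjusted p = 0.513) for Alt against Ref and 0.16 (SE 0.23, adjusted p = 1) for Ref against Ctr. The value for Alt against Ref was 0.19 without Ref replicate 2, 0.22 without Alt replicate 1 and 0.57 without Ref replicate 1. For Alt against Ctr, the difference of 0.45 after the length correction (edgeR adjusted p = 0.331) did not pass the unadjusted threshold, nor did those of 0.39 without Ctr replicate 2, 0.55 without Ctr replicate 3 and 0.37 without Alt replicate 1. Of the 7 inhibitory neuron markers, 3 were lower and 0 were higher in Alt than in Ctr at an unadjusted edgeR p of 0.05, beside 10.3% of all genes that were lower and 9.45% that were higher, with a median log2 fold change of -0.35. The part of these cells in the Cntnap4 level was not tested.

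**Figure D4:**
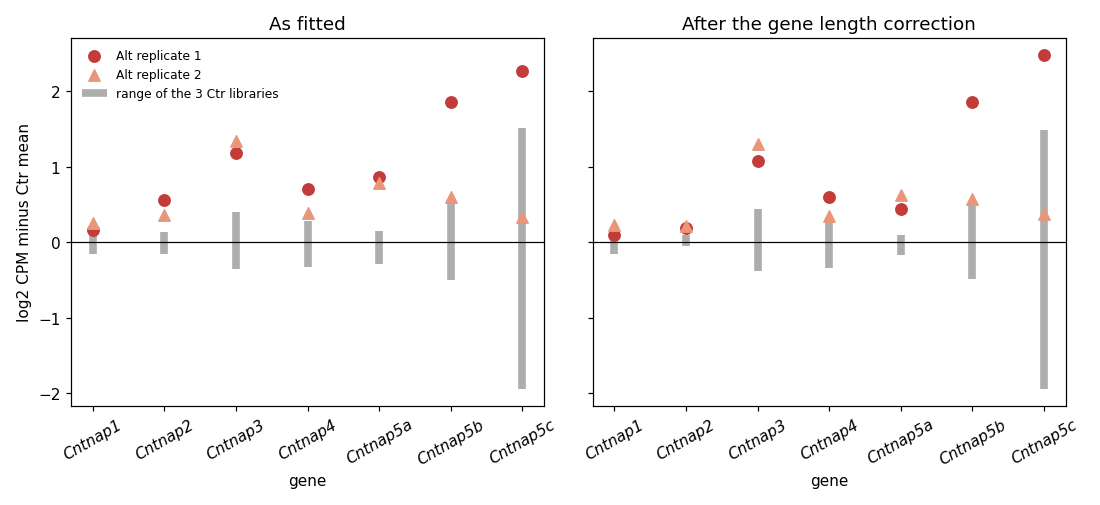
Difference of each Alt library from the Ctr mean in log2 CPM (y axis) for the 7 Cntnap genes (x axis), as fitted (left) and after the gene length correction (right); grey bars span the 3 Ctr libraries. The differences of Cntnap2 shrink from 0.56 and 0.37 to 0.19 and 0.22, Cntnap5a stays above the Ctr range at 0.45 and 0.62, and Cntnap5b and Cntnap5c stand highest in Alt replicate 1.

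Cntnap5a was at a similar level in both Alt libraries. Its CPM was 31.0, 41.2 and 42.0 in Ctr, 46.7 and 45.6 in Ref, and 68.6 and 65.0 in Alt, from 625 to 1166 counts. The 3 groups did not overlap, with Ref between Ctr and Alt. The log2 fold change was 0.81 (SE 0.17, edgeR adjusted p = 0.12; DESeq2 adjusted p = 0.00337) for Alt against Ctr, a rise of 1.75-fold. It was 0.53 (SE 0.19, adjusted p = 0.247) for Alt against Ref and 0.28 (SE 0.17, adjusted p = 1) for Ref against Ctr. Cntnap5a is the longest member, with 10945 bases, and the length correction lowered its log2 fold change for Alt against Ctr to 0.53 (edgeR adjusted p = 0.154). The plot of the Alt libraries with and without this correction shows both still above the Ctr range. It passed the unadjusted threshold with this correction and also, with a value of 0.77, without Alt replicate 1. For Alt against Ref, the differences of 0.32 after the length correction, 0.54 without Ref replicate 1 and 0.53 without Ref replicate 2 did not pass it.

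Cntnap5b had 82 to 327 counts and differed widely between the Alt libraries. Its CPM was 4.07, 5.56 and 8.64 in Ctr, 6.05 and 6.21 in Ref, and 21.3 and 8.87 in Alt. Alt replicate 1 was far above every other library, whereas Alt replicate 2 was close to Ctr replicate 3, and the Poisson intervals of this pair overlapped (7.54 to 10.4 against 7.44 to 9.97 CPM). The log2 fold change was 1.30 (SE 0.39, edgeR adjusted p = 0.127; DESeq2 adjusted p = 0.0366) for Alt against Ctr and 1.30 (SE 0.44, adjusted p = 0.237) for Alt against Ref. It was 0.01 (SE 0.40, adjusted p = 1) for Ref against Ctr. Without Alt replicate 1 the values were 0.54 against Ctr and 0.54 against Ref, and neither passed the unadjusted threshold. The length correction left the difference from Ctr at 1.30. The mean rise of Cntnap5b, as large as that of Cntnap3, thus came mainly from a single library.

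Cntnap5c had the lowest counts, 6 to 112 in a library. Its CPM was 0.298, 1.97 and 4.27 in Ctr, 1.84 and 3.10 in Ref, and 7.28 and 1.84 in Alt. Alt replicate 2 was below Ctr replicates 2 and 3, and the Ctr libraries differed among themselves beyond their Poisson intervals (0.109 to 0.648, 1.41 to 2.68 and 3.44 to 5.24 CPM). The log2 fold change was 1.06 (SE 0.82, edgeR adjusted p = 0.507) for Alt against Ctr, 0.88 (SE 0.92, adjusted p = 0.694) for Alt against Ref and 0.18 (SE 0.84, adjusted p = 1) for Ref against Ctr. With this spread, a mean difference close to that of Cntnap3 did not pass the unadjusted threshold. Leaving out Alt replicate 1 turned the Alt against Ctr value to -0.25, and leaving out Alt replicate 2 raised it to 1.73, where it passed the unadjusted threshold. All 3 Cntnap5 genes were lowest in Ctr replicate 1 and highest in Alt replicate 1. Cntnap2, which held no 50-base word of another member, had the same order (84.4 and 137.9 CPM), whereas Cntnap1, Cntnap3 and Cntnap4 did not. Some partners described below, such as Kcna1 and Kcna2, also had it. The Cntnap5 genes share sequence, as shown above, and the part of shared reads in this order was not tested. A pseudogene on the opposite strand, Rpl7a-ps5, lies within Cntnap5c and had up to 134 counts in a library.

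Between the alleles, Cntnap2, Cntnap5a and Cntnap5b were higher in Alt than in Ref at an unadjusted edgeR p of 0.05. This was 3 of 6 paralogs, beside 6.71% of all genes tested that were higher and 8.83% that were lower, and no paralog was lower. After the length correction or without Ref replicate 1, 1 of 6 passed (Cntnap5b), beside 7.43% and 1.3% of all genes that were higher. Without Alt replicate 1 another 1 passed (Cntnap5a), beside 2.35%, and 2 passed with the replicate number as a block (Cntnap5a and Cntnap5b), beside 3.76%. None passed after adjustment over all genes, where edgeR called 1 gene in all. Without the filter on low counts edgeR called Cntnap5b (adjusted p = 0.0229), beside 1.15% of genes that were called higher, and without Alt replicate 2 it did so too (adjusted p = 0.00668), beside 5.41%. Between Ref and Ctr, 0 of 6 paralogs passed the unadjusted edgeR p of 0.05, and DESeq2 also called 0 at that level, beside 2.19% of all genes that were higher and 0.945% that were lower in Ref by edgeR. The 3 comparisons share libraries and are not independent of each other.

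The likeness of each profile to that of Cntnap3 was described by Pearson's r of log2 CPM over the 7 libraries among 14491 protein-coding genes tested. The 5 genes most like Cntnap3 were Card10 (r = 0.988), Brsk2 (r = 0.974), Lrrc3 (r = 0.955), Ccdc3 (r = 0.948) and Jag2 (r = 0.947). Card10 went from 3.79 to 4.91 CPM in Ctr to 7.35 and 7.75 in Alt, and Brsk2 from 149 to 169 CPM in Ctr to 178 and 179 in Alt, so a high r did not mean a change of the same size. Among the paralogs, Cntnap4 was the most alike, with r = 0.896 and rank 43. Cntnap5a followed with r = 0.735 and rank 550, then Cntnap2 with 0.574, Cntnap1 with 0.569 and Cntnap5b with 0.555, at ranks 1636 to 1787, and Cntnap5c with 0.134 at rank 5530. With 7 libraries in 3 groups, points of a group share their treatment, and r is a description only.

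Of 23 genes whose products bind or act with Cntnap proteins, 9 were higher and 0 were lower in Alt than in Ctr at an unadjusted edgeR p of 0.05, beside the 9.45% of all genes that were higher, with a median log2 fold change of 0.29 against -0.03 over all genes tested. After the length correction 3 were higher (Kcna1, Kcna2 and Cask), beside 7.41% of all genes, and 2 were lower (Dlg4 and Nlgn3), beside 8.99%. Only Kcna1 and Kcna2 passed without Alt replicate 1, beside 3.68% of all genes that were higher. The counts under these 2 settings are small, and their difference from the shares of all genes was not tested. Kcna1 and Kcna2 encode the Shaker-type channels that Cntnap2 gathers. Kcna1 had 35.9, 58.3 and 49.7 CPM in Ctr, 56.5 and 78.0 in Ref, and 115.8 and 74.2 in Alt, and its log2 fold change for Alt against Ctr was 0.99 (SE 0.24, edgeR adjusted p = 0.12). Kcna2 had 198.7, 223.6 and 232.2 CPM in Ctr, 213.9 and 286.0 in Ref, and 480.5 and 308.7 in Alt, with a log2 fold change of 0.85 (SE 0.20, edgeR adjusted p = 0.12). Without Alt replicate 1 these values were 0.63 for Kcna1 and 0.50 for Kcna2, and after the length correction 1.02 and 0.51. In both genes Alt replicate 1 was the highest library, and Alt replicate 2 was above Ctr but, for Kcna1, below Ref replicate 2.

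Of the 6 contactins, the immunoglobulin-type partners of the family, 2 were higher in Alt than in Ctr at the unadjusted threshold, beside 9.45% of all genes. Cntn2, the partner of Cntnap2 at the juxtaparanode, had a log2 fold change of 0.53 (SE 0.23, edgeR adjusted p = 0.228) for Alt against Ctr and 0.50 (SE 0.23, adjusted p = 1) for Ref against Ctr. Its level was 164.8 CPM in Alt replicate 1 and 92.8 in Alt replicate 2, the latter within the Ctr range of 79.5 to 108.2. Cntn4 had 0.39 (SE 0.17, edgeR adjusted p = 0.244) for Alt against Ctr, and Cntn1, the paranodal partner of Cntnap1, had 0.33 (SE 0.16, adjusted p = 0.266). The value of Cntn1 was 0.10 after the length correction, 0.13 without Alt replicate 1 and 0.51 without Alt replicate 2. The calls of Cntn2 and Cntn4 did not hold under either of 2 other settings, with 0.29 for Cntn2 and 0.20 for Cntn4 after the length correction, and 0.06 and 0.29 without Alt replicate 1. The log2 fold changes of Cntn3, Cntn5 and Cntn6 were -0.03, 0.16 and -0.06, with edgeR adjusted p = 0.961, adjusted p = 0.851 and adjusted p = 0.928. Each sign turned when an Alt library was left out. Cntn3 was 0.21 and Cntn6 0.008 without Alt replicate 2, and Cntn5 was -0.01 without Alt replicate 1. The oligodendrocyte marker sum was higher in both Ref libraries than in any other, and its part in the Cntn2 level was not tested.

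Among the scaffold, adhesion and trafficking partners, Cask, Nlgn1, Dlg2, Adam22 and Nfasc were the others higher in Alt than in Ctr. Cask, a scaffold kinase of the presynapse, had a log2 fold change of 0.68 (SE 0.19, edgeR adjusted p = 0.122), with 108.8 to 128.6 CPM in Ctr and 228.9 and 159.0 in Alt. Nlgn1, a postsynaptic neuroligin, had 0.62 (SE 0.20, edgeR adjusted p = 0.142), Dlg2, or PSD-93, had 0.60 (adjusted p = 0.143), Adam22, a receptor of Lgi1, had 0.55 (adjusted p = 0.14) and Nfasc, the paranodal neurofascin gene, had 0.49 (adjusted p = 0.192). In each of these 5 genes Alt replicate 1 was the highest library. Without it none of the 5 passed the unadjusted threshold, with 0.40 for Cask, 0.36 for Nlgn1, 0.27 for Dlg2, 0.29 for Adam22 and 0.11 for Nfasc. After the length correction Cask passed with 0.46, whereas Nlgn1 with 0.22, Dlg2 with 0.09, Adam22 with 0.13 and Nfasc with 0.06 did not. The paper names the products of Nlgn1, Nlgn2, Dlg4 and Gphn as proteins with which Cntnap3 interacts. Nlgn2 had 0.16 (edgeR adjusted p = 0.668), Dlg4 -0.07 (adjusted p = 0.859) and Gphn -0.04 (adjusted p = 0.92) for Alt against Ctr. Unlike Nlgn1, they did not pass the unadjusted threshold. Against Ref, 7 of the 23 were higher in Alt and 0 were lower (Cntn1, Cntn4, Kcna2, Adam22, Dlg2, Nlgn1 and Cask), beside 6.71% of all genes that were higher and 8.83% that were lower, with a median log2 fold change of 0.23 against -0.04 over all genes. After the length correction 7 were higher, with Kcna1 (0.59) in place of Dlg2 (0.09), beside 7.43% of all genes. Dlg4 alone was lower (-0.51), beside 5.58%. Fewer passed without Alt replicate 1 or without Ref replicate 1, where a single library is left in a group. Without Alt replicate 1 the values were 0.57 for Cntn4, 0.42 for Nlgn1, 0.40 for Adam22 and 0.36 for Cask. They were 0.35 for Cntn1, 0.32 for Kcna2 and 0.19 for Dlg2. Between Ref and Ctr Cntn2 alone of the 23 passed, beside 2.19% of all genes that were higher.

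Zgpat, which encodes the repressor named above, had 14.4, 21.8 and 17.3 CPM in Ctr, 13.2 and 11.5 in Ref, and 16.6 and 13.4 in Alt. Both Ref libraries lay below Ctr, and Alt overlapped Ctr. The log2 fold change was -0.25 (SE 0.24, edgeR adjusted p = 0.609) for Alt against Ctr and -0.53 (SE 0.24, adjusted p = 1) for Ref against Ctr. Paxip1, the mouse counterpart of the gene beside which the human lncRNA lies, had 0.12 (SE 0.18, edgeR adjusted p = 0.765) for Alt against Ctr. After the length correction its value was -0.13. Neither gene passed the unadjusted threshold in any of the 3 comparisons.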

How the data were processed

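PFC RNA-seq libraries were assigned to Ctr, Ref and Alt from the sample titles. The authors deposited 1 table with unnormalized read counts, TPM and FPKM for each gene and library and the gene length. The submitters' processing notes name STAR and featureCounts without versions, and hg19, a human build, although the genes are mouse genes. Counting strand, annotation and mouse build were not given in the sources used here. Coordinates of genes are those of the table, which differ from GRCm38 in all 7 members, and printed sequences carry GRCm38 coordinates (GENCODE vM21, RefSeq GRCm38.p6). FPKM values were not used.

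The members, lists and tests were chosen with earlier results of these data known. Deposited counts were tested in edgeR 4.0.16 (R 4.3.3) with TMM, filterByExpr (minimum count 10), glmQLFit and glmQLFTest over all 7 libraries, with Benjamini-Hochberg adjustment over 17254 genes. The SE is the log2 fold change divided by the square root of F. DESeq2 1.42.0 was an alternative. Log2 CPM used a prior count of 2. For the length correction, a loess fit in R (span 0.3) of log2 deviation on log2 gene length in each library supplied the offsets. Replicates differed by more than sampling noise in every pair. Coding sequences were aligned with MAFFT 7.526. The fit was tested on simulated data. Named genes were the members, Zgpat, Paxip1, the contactins, partners at an unadjusted p of 0.05 in any comparison, and the 5 genes most like Cntnap3. Dlg4 and Nlgn3 were named after their values under the length correction were seen, and Plekhh3 and Rpl7a-ps5 because they overlap members. Nlgn2 and Gphn were named because the paper names their products as interacting with Cntnap3. Other alternatives were RLE scaling, no low-count filter, the replicate block, fitting only the groups compared, a numeric score, and leaving out each library.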

Additional observations from a re-analysis of the deposited data

How the results depend on the processing

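For Alt against Ctr, 4 paralogs passed an unadjusted p of 0.05, and the count was 2 under the gene length correction and 1 without Alt replicate 1; leaving out each library gave 1 to 5. For Alt against Ref, 3 paralogs passed, with 1 under the length correction, 1 without Ref replicate 1 and 1 without Alt replicate 1, and a range of 1 to 3. For Ref against Ctr the count was 0 in each alternative run. Of the 23 partners, 9 passed for Alt against Ctr, 5 under the length correction and 2 without Alt replicate 1, with a range of 2 to 12; for Alt against Ref it was 7, 2 without Alt replicate 1 and 1 without Ref replicate 1, with a range of 1 to 10; these partner alternatives were chosen after seeing the data. No other alternative moved these counts by over 1.5 times. Of the 5 partners that passed for Alt against Ctr under the length correction, 3 were higher and 2 were lower. With the replicate block the paralog counts were 4, 2 and 0, and Cntnap2 for Alt against Ref no longer passed. The deviations of samples with the same number had correlations of -0.10 to 0.07. With 2 libraries in Ref and in Alt, the deviations within each of these groups mirror each other. These correlations therefore cannot settle whether samples with the same number share a batch.

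Over all genes, the number past an adjusted p of 0.05 depended on the tool, the filter and the libraries. It was 0, 1 and 0 for Alt against Ctr, Alt against Ref and Ref against Ctr with edgeR, 1097, 429 and 6 with DESeq2, 1484, 850 and 40 with edgeR without the low-count filter, and 3451, 2708 and 5 with edgeR without Alt replicate 2; the cause was not tested. Some differences that passed no threshold changed sign. For Ref against Ctr, Cntnap5b was -0.0057 under DESeq2, -0.0063 under RLE scaling, -0.054 after the length correction and -0.011 with only the groups compared, and ranged from -0.21 to 0.35 with each library left out. Cntnap2 was -0.046 after the length correction and ranged from -0.092 to 0.12, Cntnap4 from -0.045 to 0.34 and Cntnap5c from -0.34 to 1.12. For Alt against Ref, Cntnap1 ranged from -0.11 to 0.010 and Cntnap5c from -0.41 to 1.57, and for Alt against Ctr Cntnap5c ranged from -0.25 to 2.00. With the replicate block, Cntnap5c was 2.23 for Alt against Ctr and 1.20 for Ref against Ctr. It had 6 to 112 counts in a library, and the part of depth in its spread was not tested.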
